A study of Mus musculus with 38 samples.

Results

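Dual specificity phosphatases (DUSPs) remove phosphate from both the tyrosine and the threonine of an activated kinase. Their best known substrates are the mitogen-activated protein kinases (MAPKs), which are ERK, JNK and p38, and in neurons ERK carries signals from synaptic activity to the nucleus. Several DUSP genes are themselves switched on by MAPK and CREB signalling and so act as negative feedback, whereas others are expressed without a stimulus. Transcripts of 8 members of the family (Dusp1, Dusp3, Dusp4, Dusp5, Dusp6, Dusp7, Dusp8 and Dusp14) were read by gene symbol from the count table of each library, and all 8 were found among the 23420 genes counted, which hold 24 genes with a Dusp symbol.

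The libraries came from the dentate gyrus of adult male Arc::dVenus mice aged 8 to 12 weeks on a C57BL/6J background. The transgene puts a short-lived Venus protein under control of the Arc promoter, so a dVenus+ cell is one in which that promoter was recently active and a dVenus- cell is a neighbour without visible reporter. Mice of the fear conditioned group (FC, 12 mice) heard tones paired with foot shocks in a training chamber, mice of the no-shock group (NS, 4 mice) had the same session without shocks, and home-cage mice (HC, 3 mice) stayed in their cages. In FC and NS mice the cells were taken 24 h after training. Each mouse gave 1 library pooled from 10 aspirated dVenus+ granule cells and 1 pooled from 10 dVenus- granule cells, which makes 38 libraries from 19 mice.

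Reads assigned to genes numbered 1352288 to 18394761 per library (median 8013005). The dVenus+ libraries were the shallower ones, with medians of 7080450 against 9955730 reads in FC (deeper in dVenus+ in 3 of 12 mice), and in NS a larger share of their reads fell in no gene (median 39.3% against 18.9%, higher in 3 of 4 mice). The part of depth and of these reads in the results below was not tested. Arc was higher in the dVenus+ library of every mouse in each group, and in FC it rose by 9.98 ± 1.41 (log2 fold change ± SE, n = 12 mice, adjusted p = 0.000991, edgeR quasi-likelihood test with Benjamini-Hochberg adjustment). The dVenus- libraries of FC mice 6, 7 and 14 nevertheless held 1276, 1095 and 2549 counts of Arc, against at most 16 in the dVenus- libraries of the other FC mice, so values without these 3 mice are given below for Dusp1, Dusp14 and Spry2. All 9 markers of granule cells reached 10 counts in at least 1 FC library, but their summed level was lower in the dVenus+ library of 12 of 12 FC, 4 of 4 NS and 3 of 3 HC mice (median 424 against 1205 CPM in FC). The summed level of 10 microglial markers was higher in the dVenus+ library of all 12, 4 and 3 mice (median 242 CPM, range 36.2 to 1973, against 59.1 CPM, range 1.16 to 689, in FC), and all 10 reached 10 counts in at least 1 library of each group. No microglial marker was at 0 throughout. Markers of other cell types were present in both populations. In FC, 6 oligodendrocyte markers had summed medians of 509 CPM in dVenus+ and 530 CPM in dVenus- libraries. For 7 astrocyte markers these were 296 and 496 CPM. The 2 sums were higher in dVenus+ in 5 and 4 of 12 FC mice, 2 and 2 of 4 NS mice, and 1 and 3 of 3 HC mice. In NS the astrocyte sums had medians of 1769 and 1307 CPM in dVenus+ and dVenus- libraries, and the oligodendrocyte sums 1332 and 2017 CPM. In HC these were 1795 and 657 CPM, and 1316 and 2025 CPM. Granule cell marker sums had medians of 399 and 1405 CPM in NS and 616 and 1264 CPM in HC. Microglial medians were 686 and 23.6 CPM in NS and 1125 and 383 CPM in HC. FC and control libraries came from different submissions. The sum of 6 interneuron markers was higher in dVenus+ in 4 of 12 FC mice. The part of these markers in the results below was not tested.

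The bases before a transcription start can hold sites for activity-dependent factors, and 4 stretches are printed. Those of Dusp1, Dusp8 and Dusp5 hold such sites, and that of Dusp14 holds none of the sites marked in capitals below. Nor did the windows of Dusp3, Dusp6 and Dusp7, which are not printed. The printed stretches were taken from RefSeq (GRCm38.p6), in which 7 of the 8 members had an entry, and lie outside every exon that GENCODE M21 gives the gene. The start used is that of the 1 transcript RefSeq's promoter table gives for a gene, and for Dusp3, Dusp8 and Dusp14 it lies inside the gene span printed further on, because the span reaches to an earlier start, so their windows are within the gene. The window of Dusp7 also runs past the first base of its span. The bases before the earlier starts were not searched. Capitals mark the cAMP response element TGACGTCA, to which CREB binds, and its shorter form TGACG or CGTCA on either strand, and in Dusp5 also the CArG box of the serum response element.
Dusp1 (chr17:26508523-26508722, minus strand, 250 to 51 bases before the start): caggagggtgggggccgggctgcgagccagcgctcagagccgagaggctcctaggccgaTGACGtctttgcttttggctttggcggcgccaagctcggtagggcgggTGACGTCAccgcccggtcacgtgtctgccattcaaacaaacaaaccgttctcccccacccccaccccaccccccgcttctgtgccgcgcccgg
Dusp8 (chr7:142095335-142095404, minus strand, 120 to 51 bases before the start): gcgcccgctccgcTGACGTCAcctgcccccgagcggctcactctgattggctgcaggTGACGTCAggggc
Dusp5 (chr19:53529035-53529104, plus strand, 110 to 41 bases before the start): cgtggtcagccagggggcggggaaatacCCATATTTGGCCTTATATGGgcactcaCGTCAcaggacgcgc
Dusp14 (chr11:84068358-84068477, minus strand, 120 to 1 bases before the start): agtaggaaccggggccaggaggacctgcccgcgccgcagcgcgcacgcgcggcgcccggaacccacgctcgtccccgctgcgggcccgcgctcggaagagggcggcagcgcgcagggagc
Within the 250 bases before the start, Dusp1 held 1 full cAMP response element, beginning 143 bases upstream, and Dusp8 held 2, beginning 107 and 63 bases upstream. The full element was found in 1.55% of 32851 promoter windows of the same length. The shorter form, which is part of the full element, occurred 3 times in Dusp1, 4 times in Dusp8 and 1 time in Dusp5, and 17.8% of all windows held it. Dusp5 held 2 CArG boxes, found in 1.47% of windows. Neither form of the cAMP response element and no CArG box was found in these windows of Dusp3, Dusp6, Dusp7 and Dusp14, which for all but Dusp6 lie wholly or partly inside the gene span, and the AP-1 site TGANTCA, present in 6.75% of windows, was in none of the 7. These matches are letters in a window and no measurement of binding.

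Each member was compared within the mouse, dVenus+ against dVenus-. Levels are counts scaled to library size with TMM factors (CPM), and a gene was called where the adjusted p was under 0.05 and the absolute log2 fold change above 1. In FC, 6 of the 8 members passed the filter of 10 counts in 12 libraries, and 1 of them, Dusp1, was called, in the direction of higher expression in dVenus+ cells. Of all 9709 genes tested in FC, 1.41% were called in either direction and 0.577% were called higher. No member was called lower in FC by this test, Dusp14 being closest, and 0.834% of all genes were called lower. With the newer quasi-likelihood method of edgeR, added after the data were seen, Dusp1 and Dusp14 were called, among 4.35% of all genes, and with DESeq2 Dusp1, Dusp14 and Dusp7 were called, among 17.0%. Of the 6 members, 2 had an unadjusted p under 0.05 (12.8% of all genes did) and 4 a log2 fold change below 0 (56.9% of all genes). No member separated the populations without overlap, which 0.134% of all genes did. The median log2 fold change of the 6 members was -0.71, and that of all genes tested in FC was -0.21. In this bulk measurement, fewer cells with a transcript and less of it per cell cannot be told apart.

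**Figure D1:**
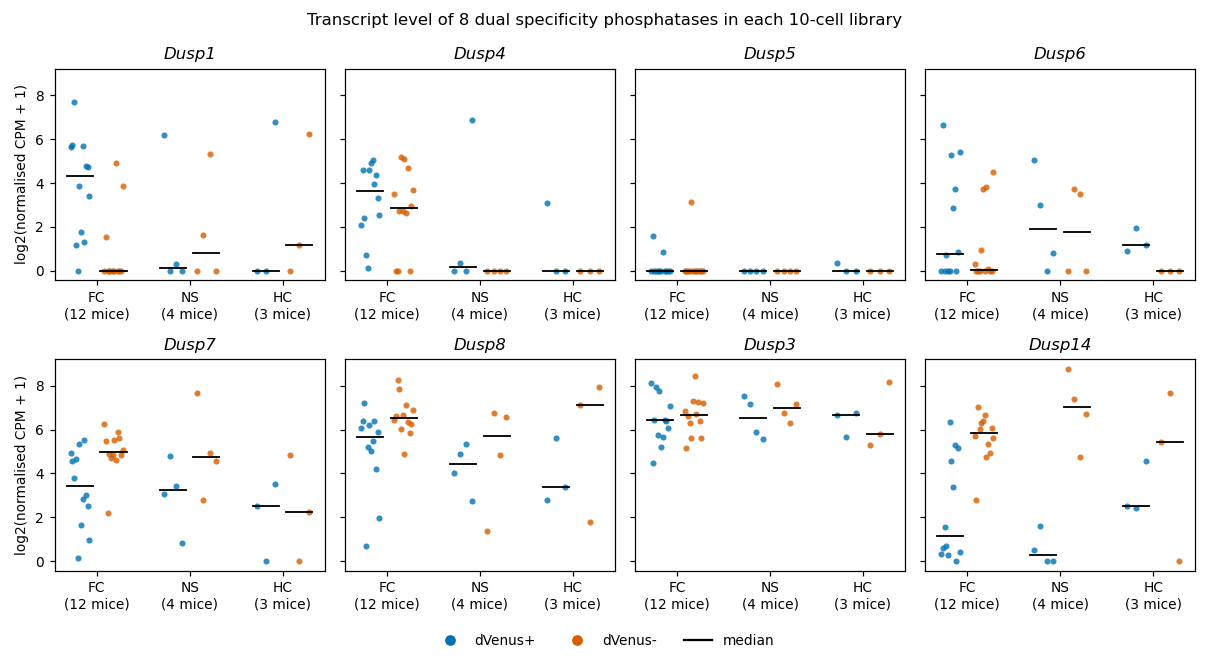
Level of each member in each of the 38 libraries, as log2(CPM + 1) on the vertical axis, for FC, NS and HC mice. Each point is 1 library, blue for dVenus+ and orange for dVenus-, and black bars are medians. In FC, Dusp1 lies at 0 in 9 of 12 dVenus- libraries and Dusp14 below 13 counts in 7 of 12 dVenus+ libraries, whereas Dusp3 is present in every library.

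Dusp1 (MKP-1, chr17:26505591-26508472, minus strand) encodes an inducible nuclear phosphatase of p38, JNK and ERK, and is a classical immediate early gene. In FC its level ran from 0 to 208 CPM in the dVenus+ libraries (median 19.7) and from 0 to 29.4 CPM in the dVenus- libraries (median 0). In 10 of 12 mice the dVenus+ library had the higher value, whereas it was lower in mouse 14 and at 0 in both libraries of mouse 6. Over all genes tested, 5.25% were higher in the dVenus+ library of at least 10 of the 12 mice. In the dVenus- population 9 libraries held no Dusp1 read, which allows up to 0.123 to 0.956 CPM per library, counting error only.

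The level of Dusp1 in FC was 36.7 ± 57.6 CPM in dVenus+ and 3.75 ± 8.97 CPM in dVenus- libraries (mean ± SD, n = 12 each), a ratio of 9.79. The paired fit put the log2 fold change at 7.47 ± 1.73 (SE, 95% interval 3.84 to 11.10, adjusted p = 0.0372, edgeR quasi-likelihood test adjusted by Benjamini-Hochberg), and the newer method at 4.97 ± 1.24 (adjusted p = 0.0179). The default fit corresponds to a 177-fold change, far above the ratio of the means, with 9 of 12 dVenus- libraries at 0. The source of this gap was not tested. Dusp1 passed the count filter through 10 dVenus+ and 2 dVenus- libraries. The groups overlapped, because mouse 10 had 50.2 and 29.4 CPM and mouse 14 had 9.51 and 13.7 CPM in its dVenus+ and dVenus- library.

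The call of Dusp1 in FC depended on single mice. Leaving out 1 mouse in turn gave log2 fold changes of 6.75 to 8.22 with adjusted p of 0.0459 to 0.0889 over 10 omissions. The call held without mouse 6 and was lost without mouse 1, 3, 4, 5, 7, 9, 11, 12 or 13, and without mouse 10 or 14 the gene fell below the filter. Without mice 6, 7 and 14, whose dVenus- libraries held Arc reads, the value was 8.13 (adjusted p = 0.0480). The FC mice were sequenced in 3 submissions, and Dusp1 was higher in dVenus+ in 2 of 2, 3 of 4 and 5 of 6 of their mice. Within the largest submission alone the log2 fold change was 5.79 (adjusted p = 0.704), and without the mouse as a block it was 3.17 (adjusted p = 0.322).

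In the control groups Dusp1 had no common direction. In NS mice 18, 19, 20 and 21 it stood at 71.5, 0, 0.216 and 0 CPM in the dVenus+ libraries and at 0, 2.04, 39.7 and 0 CPM in the dVenus- libraries. In HC mice 15, 16 and 17 the dVenus+ libraries had 0, 0 and 110 CPM and the dVenus- libraries 0, 1.24 and 75.4 CPM. Both populations thus overlapped in NS and in HC, with high levels in both libraries of HC mouse 17, and Dusp1 was below the count filter in both groups.

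Dusp14 (MKP-6, chr11:84048033-84069256, minus strand) encodes a small atypical phosphatase without the kinase-binding domain of the classical MAPK phosphatases. In FC it ran from 0 to 81.2 CPM in dVenus+ libraries (median 1.30) and from 5.85 to 130 CPM in dVenus- libraries (median 57.6). It was lower in the dVenus+ library of 12 of 12 mice, which held for 0.978% of all genes tested, although the pair was nearly level in mouse 7 (81.2 against 82.3 CPM) and mouse 11 (38.9 against 39.6 CPM). This count was the same on plain CPM and with DESeq2 size factors. Of the dVenus+ libraries, 7 held 0 to 12 counts and 5 held 114 to 661 counts, so the transcript was near absent in most pools. Of these 5, those of mice 7 and 11 were level with their dVenus- library. Mice 9, 10 and 13 had 22.4, 9.32 and 34.6 CPM in dVenus+ against 102, 25.5 and 66.7 CPM in dVenus-. In the 7 libraries with at most 12 counts the summed granule cell markers had a median of 390 CPM (range 81.9 to 774). Those of the other 5 had a median of 487 CPM (range 416 to 1215). The summed microglial markers had medians of 228 CPM (range 36.2 to 972) and 256 CPM (range 58.3 to 1973). The part of either set of markers in this split was not tested.

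Mean levels of Dusp14 in FC were 15.9 ± 25.0 CPM in dVenus+ and 60.1 ± 34.6 CPM in dVenus- libraries (SD, n = 12 each), the latter 3.79 times the former. The paired log2 fold change was -4.38 ± 1.25 (SE, 95% interval -6.99 to -1.76) with an adjusted p of 0.0946 (edgeR quasi-likelihood test with Benjamini-Hochberg adjustment), which missed the threshold. With the newer quasi-likelihood method it was -3.18 ± 0.83 (adjusted p = 0.0241), and with DESeq2 -4.34 ± 0.74 (adjusted p = 4.54e-07), both past it. Leaving out 1 mouse in turn moved the default estimate between -4.95 and -3.85 with no call. Without mice 6, 7 and 14 it was -3.94 (adjusted p = 0.286), and in the submissions of 6 and 4 mice it was -2.68 and -5.95.

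In NS the values of Dusp14 did not overlap. It passed the count filter there through the 4 dVenus- libraries alone, since no dVenus+ library reached 10 counts, so a gene listed on these terms had to differ. Mice 18, 19, 20 and 21 had 442, 166, 25.6 and 104 CPM in the dVenus- libraries and 0.422, 2.05, 0 and 0 CPM in the dVenus+ libraries. In counts these are 2753, 894, 349 and 1413 reads against 3, 7, 0 and 0. Groups without overlap were seen for 6.00% of the 8187 genes tested in NS, and 6.71% were lower in the dVenus+ library of each of the 4 mice. The log2 fold change was -9.20 ± 1.83 (SE, 95% interval -13.03 to -5.38, unadjusted p = 6.81e-05), and with an adjusted p of 0.139 it was not called (edgeR quasi-likelihood test with Benjamini-Hochberg adjustment). Over the other settings tried in NS the adjusted p lay between 1.68e-08, with DESeq2, and 0.572, without mouse 20, and it was 0.00479 without a count filter, where 0.0896% of genes were called. With the newer quasi-likelihood method it was 0.0677.

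In HC mice 15, 16 and 17, Dusp14 was at 4.73, 4.33 and 22.5 CPM in dVenus+ and at 42.7, 203 and 0 CPM in dVenus- libraries. It was thus lower in dVenus+ in 2 of 3 mice and higher in mouse 17, which had no read in its dVenus- library. The log2 fold change of -2.68 ± 4.23 (SE, adjusted p = 0.984, edgeR quasi-likelihood test) did not stand out from the spread between mice, and it turned positive without mouse 15 (1.35) or mouse 16 (2.69).

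**Figure D2:**
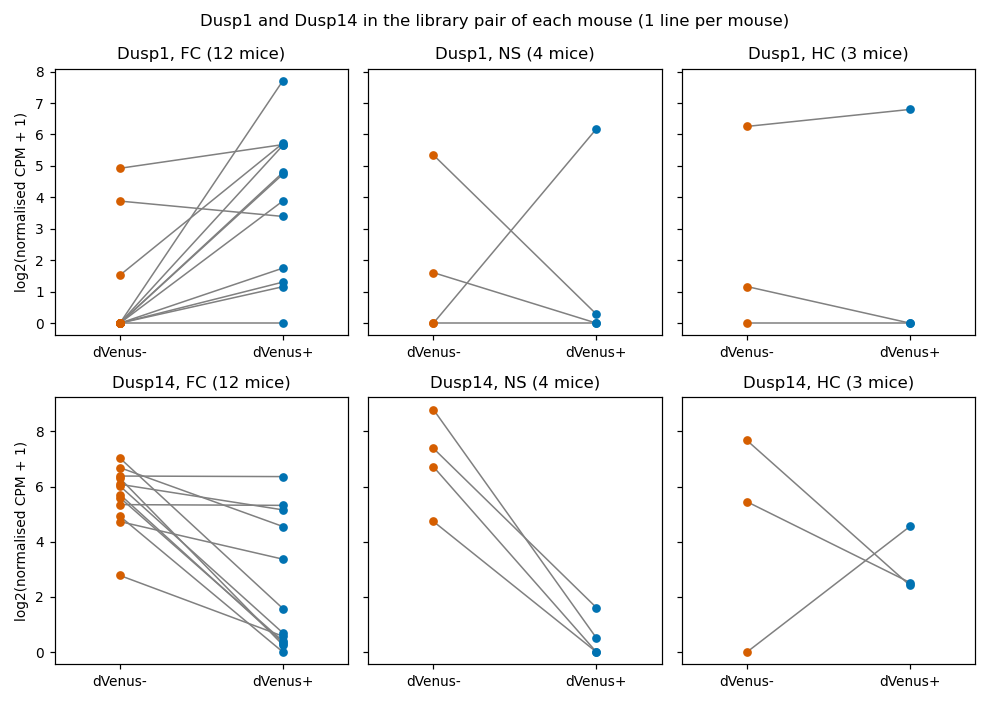
Dusp1 (top) and Dusp14 (bottom) in the pair of libraries of each mouse, as log2(CPM + 1), with 1 line per mouse from dVenus- (orange) to dVenus+ (blue). Dusp1 lines climb in 10 of 12 FC mice and in 1 of 4 NS mice, and Dusp14 lines descend in 12 of 12 FC, 4 of 4 NS and 2 of 3 HC mice.

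Dusp4 and Dusp5 are, like Dusp1, inducible nuclear phosphatases, Dusp4 acting on ERK and JNK and Dusp5 on ERK. Dusp4 (chr8:34807610-34819894) was read at 0.0964 to 32.3 CPM in the dVenus+ libraries of FC mice (median 11.8) and at 0 to 35.5 CPM in their dVenus- libraries (median 6.26). It was higher in dVenus+ in 6 mice and lower in 6 (7 and 5 on plain CPM and with DESeq2 size factors). The log2 fold change of 0.64 ± 1.54 (SE, adjusted p = 0.932, edgeR quasi-likelihood test with Benjamini-Hochberg adjustment) had a 95% interval from -2.58 to 3.87. Outside FC the transcript was rare. All 4 NS and all 3 HC dVenus- libraries had 0 reads of Dusp4, which allows up to 0.557 CPM in NS and 0.620 CPM in HC. Among the dVenus+ libraries, NS mouse 21 had 117 CPM from 467 reads, HC mouse 15 had 7.52 CPM from 27 reads, NS mouse 19 had 1 read and the remaining 4 had none. At least 10 reads of Dusp4 were present in 10 of 12 dVenus+ and 9 of 12 dVenus- libraries of FC mice, and in 1 of 4 NS and 1 of 3 HC dVenus+ libraries, but FC and control libraries were sequenced in different submissions, so training and submission cannot be told apart here.

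Dusp5 (chr19:53529145-53541809, plus strand) was nearly silent, with 0 reads in 34 of 38 libraries. The exceptions were the dVenus- library of FC mouse 6 with 94 reads (7.88 CPM), the dVenus+ libraries of FC mice 3 and 10 with 4 and 10 reads, and the dVenus+ library of HC mouse 15 with 1 read. Where no read was seen, up to 0.123 to 1.85 CPM per library is possible. The first exon of Dusp5 overlaps an antisense gene in GENCODE M21, and the library kit does not mark strand.

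Dusp6 and Dusp7 encode cytoplasmic phosphatases that are selective for ERK. Dusp6 (chr10:99263231-99267489, plus strand) had no common direction in FC or NS. In FC it ran from 0 to 98.6 CPM in dVenus+ (median 0.715) and from 0 to 21.9 CPM in dVenus- libraries (median 0.0280), higher in dVenus+ in 6 mice, lower in 4 and absent from both libraries in 2 (5, 5 and 2 on plain CPM). In NS mice 18, 19, 20 and 21 it was at 32.5, 7.03, 0 and 0.753 CPM in dVenus+ and at 0, 12.1, 10.5 and 0 CPM in dVenus- libraries. In HC mice 15, 16 and 17 the dVenus+ libraries held 3, 6 and 9 reads and the dVenus- libraries none. The transcript was thus higher in dVenus+ in 3 of 3 mice at counts too low for a fold change. Of the 7588 genes tested in HC, which do not include Dusp6, 17.9% were higher in dVenus+ in every mouse. Dusp6 was below the count filter in FC and HC, and in NS its log2 fold change was 1.68 ± 3.86 (SE, adjusted p = 1, edgeR quasi-likelihood test).

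Dusp7 (chr9:106368560-106375724, plus strand) ran from 0.0964 to 44.7 CPM in FC dVenus+ libraries (median 10.0) and from 3.64 to 75.8 CPM in FC dVenus- libraries (median 30.8). It was lower in the dVenus+ library of 10 of 12 mice, all but mice 4 and 7, and 8.50% of all genes tested were lower in at least 10. On plain CPM it was lower in 11 of 12. The log2 fold change was -1.89 ± 0.94 (SE, 95% interval -3.85 to 0.06, adjusted p = 0.413, edgeR quasi-likelihood test adjusted by Benjamini-Hochberg), which is not a call, although DESeq2 gave an adjusted p of 0.0218. In NS mice 18, 19, 20 and 21 the dVenus+ libraries had 7.32, 27.0, 9.73 and 0.753 CPM and the dVenus- libraries 204, 5.94, 29.7 and 22.5 CPM. Mouse 19 ran against the other 3, and the log2 fold change was -2.76 ± 2.60 (SE, adjusted p = 1, edgeR quasi-likelihood test). In HC the values were 4.73, 0 and 10.6 CPM in dVenus+ and 27.7, 0 and 3.74 CPM in dVenus- libraries, which gives no common direction.

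Dusp8 encodes a phosphatase that prefers JNK and p38 and is abundant in brain. Its levels in FC (chr7:142079487-142095907, minus strand) were 0.616 to 149 CPM in dVenus+ libraries (median 51.0) and 29.0 to 304 CPM in dVenus- libraries (median 92.1). As with Dusp7, it was lower in dVenus+ in 10 of 12 mice, the exceptions being mice 9 and 11, and the 2 groups overlapped widely. The log2 fold change of -1.24 ± 0.63 (SE, 95% interval -2.56 to 0.08) had an adjusted p of 0.440 with edgeR's quasi-likelihood test, 0.220 with its newer method and 0.0950 with DESeq2, so no test called it. In NS mice 18, 19, 20 and 21, Dusp8 was at 15.1, 28.4, 40.0 and 5.77 CPM in dVenus+ and at 1.60, 108, 27.3 and 95.1 CPM in dVenus- libraries. In HC mice 15, 16 and 17 it was at 5.85, 47.7 and 9.48 CPM in dVenus+ and at 137, 2.48 and 246 CPM in dVenus- libraries. On TMM-scaled levels the direction was divided 2 against 2 in NS, but on plain CPM Dusp8 was higher in 1 mouse and lower in 3. In HC mouse 16 went against the other 2. The 2 members with a full cAMP response element in the window printed above, Dusp1 and Dusp8, had log2 fold changes of 7.47 and -1.24 in FC. Only that of Dusp1 was called, and the interval of Dusp8 included 0. A relation between the element and the change was not tested.

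Dusp3 (VHR, chr11:101971141-101987013, minus strand) is an atypical phosphatase of ERK and JNK that is expressed without a stimulus in many cells. It was the only member with at least 10 counts in all 38 libraries. In FC it ran from 21.0 to 282 CPM in dVenus+ (median 84.6) and from 34.9 to 351 CPM in dVenus- libraries (median 101). It was higher in dVenus+ in 5 mice and lower in 7 (3 and 9 on plain CPM, 6 and 6 with DESeq2 size factors). The log2 fold change was -0.17 ± 0.42 (SE, adjusted p = 0.932, edgeR quasi-likelihood test adjusted by Benjamini-Hochberg), and its 95% interval of -1.04 to 0.69 is the narrowest of the 6 members tested. NS mice 18, 19, 20 and 21 had 182, 142, 58.4 and 46.2 CPM in dVenus+ and 272, 108, 79.3 and 144 CPM in dVenus- libraries. HC mice 15, 16 and 17 had 99.7, 49.1 and 108 CPM in dVenus+ and 38.8, 54.1 and 287 CPM in dVenus- libraries. The populations overlapped in all 3 groups.

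**Figure D3:**
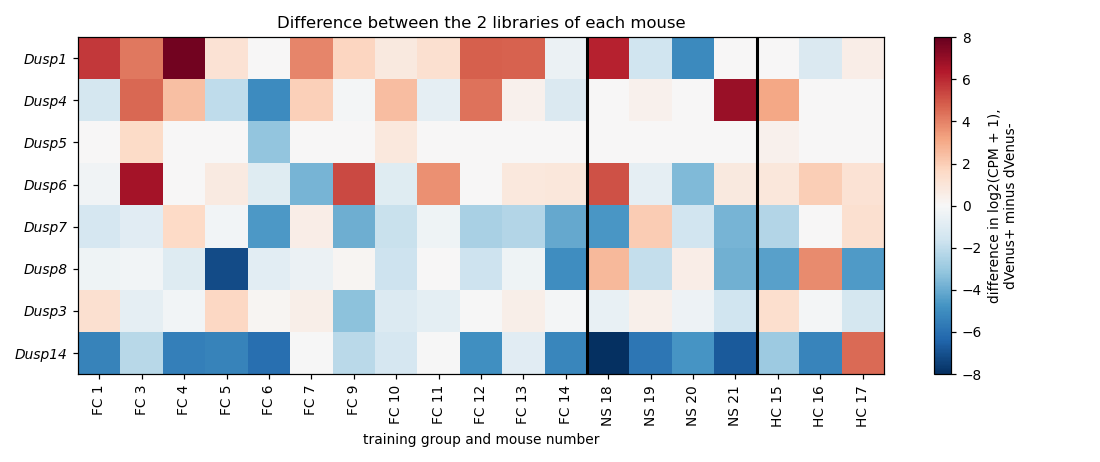
Difference in log2(CPM + 1) between the dVenus+ and the dVenus- library of each of the 19 mice (columns) for each member (rows), red where dVenus+ was higher and blue where it was lower. Dusp14 is blue throughout FC and NS and in 2 of 3 HC mice, with mice 7 and 11 near 0, and Dusp1 is red in 10 of 12 FC mice.

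Divided by exon length, the order of the members differed between the populations. In the dVenus- libraries of FC mice, median levels per kilobase were 32.8 CPM for Dusp14, 21.7 for Dusp3, 19.2 for Dusp8, 9.58 for Dusp7 and 2.28 for Dusp4, with Dusp1 and Dusp5 at 0. In the dVenus+ libraries of the same mice the order by median CPM per kilobase was Dusp3 (18.1), Dusp8 (10.6), Dusp1 (8.31), Dusp4 (4.32), Dusp7 (3.11) and Dusp14 (0.740). Neighbours in these orders overlapped in their ranges, for example 3.33 to 73.9 CPM per kilobase for Dusp14 and 7.45 to 74.9 for Dusp3 in FC dVenus- libraries. Dusp14 also had the highest median in NS dVenus- libraries (76.9 CPM per kilobase, against 27.0 for Dusp3), and in HC dVenus- libraries it came after Dusp8 (24.3 against 28.6). Summed over the 8 members, FC libraries had 267 ± 124 CPM in dVenus+ and 350.0 ± 118 CPM in dVenus- cells (SD, n = 12 each).

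None of the 5 members tested in NS was called, 1 (Dusp14) was under an unadjusted p of 0.05, and DESeq2 called that 1. Of the 8187 genes tested there, 0.00% were called by edgeR's default and 0.0489% by its newer method, 8.20% were called by DESeq2, and 4.69% had an unadjusted p under 0.05. The log2 fold change was below 0 for 4 of the 5 members and for 46.1% of all genes. In HC, 4 members were tested and none was called by edgeR or DESeq2 or had an unadjusted p under 0.05, while 0.0264% of 7588 genes were called by edgeR, 8.24% were called by DESeq2, and 3.91% had an unadjusted p under 0.05. All 4 members tested in HC (Dusp3, Dusp7, Dusp8 and Dusp14) had a log2 fold change below 0, as did 48.4% of all genes, but Dusp3, Dusp7 and Dusp14 turned positive when 1 of the 3 mice was left out (0.34 without mouse 17, 1.13 without mouse 15 and up to 2.69 without mouse 16).

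**Figure D4:**
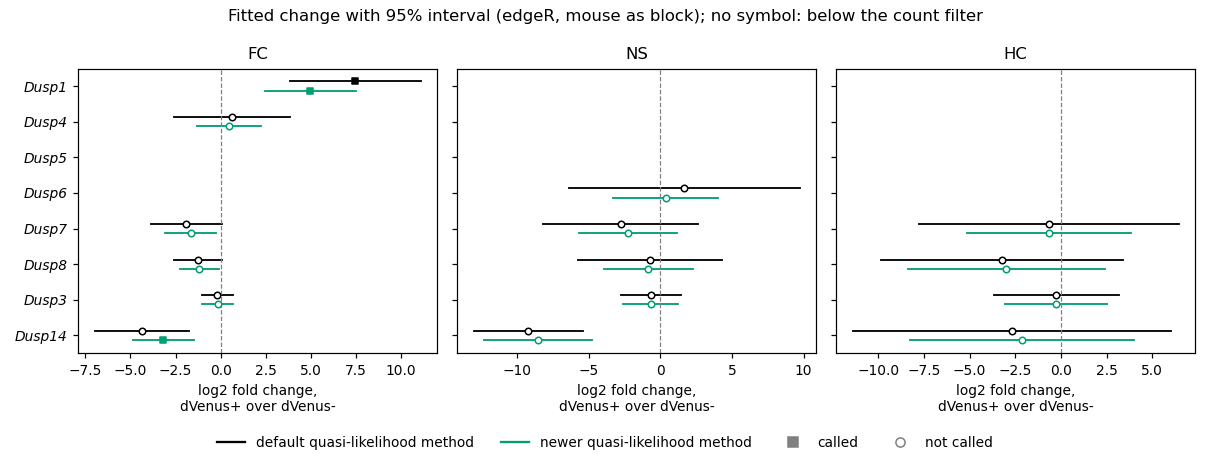
Log2 fold change of dVenus+ over dVenus- with its 95% interval for each member in FC, NS and HC, from the default (black) and the newer (green) quasi-likelihood method of edgeR. Filled squares are calls, open circles are not, and members without a symbol were below the count filter. In FC the default method calls Dusp1 (7.47) and the newer method calls Dusp1 (4.97) and Dusp14 (-3.18).

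Whether the within-mouse difference itself changed with training was tested in 1 fit of all 38 libraries. All FC libraries were sequenced in other submissions than the NS and HC libraries, so in FC against NS and in FC against HC, training and submission cannot be told apart. No member passed in FC against NS, in FC against HC or in NS against HC (edgeR quasi-likelihood test with Benjamini-Hochberg adjustment), where 0.00%, 0.00% and 0.00710% of 14075 genes were called. For Dusp1 the difference between FC and NS was 11.47 ± 5.68 (log2 scale ± SE, adjusted p = 0.876) and that between FC and HC was 8.58 ± 3.90 (adjusted p = 0.770, unadjusted p = 0.0379). For Dusp14 the difference between FC and NS was 4.86 ± 2.53 (adjusted p = 0.876) and that between NS and HC -6.76 ± 3.26 (adjusted p = 0.992, unadjusted p = 0.0481). These last 2 unadjusted values, for Dusp1 in FC against HC and Dusp14 in NS against HC, were the only ones of a member under 0.05, at 1 of 7 members tested in each. Over all genes such values made up 5.42% in FC against NS, 6.34% in FC against HC and 4.89% in NS against HC. DESeq2 called Dusp1 and Dusp14 in FC against NS, Dusp1 in FC against HC and Dusp14 in NS against HC, among 9.18%, 11.9% and 10.4% of all genes. Whether these differences were called thus depended on the test.

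NS and HC libraries shared a submission and could be compared directly. Among dVenus+ libraries 3 members were tested and among dVenus- libraries 5, none was called by edgeR or DESeq2 or had an unadjusted p under 0.05, and 0.00% of all genes were called by edgeR in either population, with 3.45% and 3.28% under an unadjusted p of 0.05. For Dusp14 in dVenus- cells the log2 fold change of NS over HC was 1.10 ± 1.58 (SE, 95% interval -2.25 to 4.46, adjusted p = 1.00, edgeR quasi-likelihood test), and for Dusp3 in dVenus+ cells it was 0.31 ± 0.96 (adjusted p = 1.00).

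Other genes of MAPK signalling were taken from lists of ERK cascade kinases and adaptors (13 of 15 tested in FC), JNK and p38 pathway genes (8 of 11), ERK pathway inhibitors outside the DUSP family (10 of 14) and MAPK targets and effectors (12 of 18). In FC the only call among them, where 1.41% of all genes were called, was Spry2, a Sprouty protein that restrains receptor tyrosine kinase signalling to ERK. Median log2 fold changes of the 4 lists in FC were -0.16, 0.31, 0.56 and 0.03, beside -0.21 for all genes. In NS and HC no gene of the 4 lists was called, and the lists had 2 (NS) and 2 (HC) genes under an unadjusted p of 0.05, beside 4.69% and 3.91% of all genes. The newer quasi-likelihood method called Rasa1 (lower) beside Spry2 in FC, among 4.35% of all genes, and Rasa1 is named after its values were seen. DESeq2 called 5 genes of these lists in FC, and 5 and 2 in the NS and HC mice, where it called 17.0%, 8.20% and 8.24% of all genes.

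Spry2 ran from 51.4 to 405 CPM in FC dVenus+ libraries (median 94.1) and from 0.319 to 60.8 CPM in FC dVenus- libraries (median 20.0), and was higher in dVenus+ in 12 of 12 mice, as were 0.546% of all genes. It rose by 2.71 ± 0.64 (log2 fold change ± SE, adjusted p = 0.0398, edgeR quasi-likelihood test with Benjamini-Hochberg adjustment). The call was lost in 8 of 12 omissions of 1 mouse (adjusted p 0.0341 to 0.0981), while the estimate stayed between 2.41 and 2.94. It was also lost without mice 6, 7 and 14 (2.77, adjusted p = 0.1303). In NS Spry2 was higher in 4 of 4 mice (10.3% of all genes were) and in HC in 2 of 3, with log2 fold changes of 2.79 and 0.46 that were not called. These directions are on TMM-scaled levels. In FC mouse 14 Spry2 had 247 of 8012131 reads in dVenus+ and 877 of 9241471 in dVenus-, so plain shares of the library reverse the direction. The same holds for NS mouse 20 (275 of 5713182 against 793 of 8735524) and HC mouse 16 (295 of 7034630 against 467 of 9096451). With TMM scaling NS mouse 20 was nearly level (59.5 against 58.1 CPM).

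The remaining 16 genes with a Dusp symbol were mostly sparse, 2 of them (Dusp11 and Dusp18) having at least 10 counts in 19 or more libraries and 1 (Dusp21) being at 0 throughout. In FC 3 of the 16 were tested, in NS 4 and in HC 5, and none was called by edgeR, with 2 in HC (Dusp23 and Dusp28, both lower in dVenus+) under an unadjusted p of 0.05 and called by DESeq2, beside 3.91% and 8.24% of all genes. These names were picked after their values were seen.

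The genes whose levels ran most closely with Dusp1 over the 38 libraries, among 11263 genes, were Svil (Spearman's rho 0.60), Fbxo11 (0.60) and Blvrb (0.57). Closer company was found for Dusp14, which was examined after its values were seen: Cck, the gene of the neuropeptide cholecystokinin, had a rho of 0.84, Rfx3 0.74 and Grcc10 0.74. Cck itself was lower in the dVenus+ library of 12 of 12 FC, 4 of 4 NS and 2 of 3 HC mice. Of all genes tested, 0.978% in FC and 6.71% in NS were lower in every mouse. Cck was picked by its rho over both populations together, so its direction is no separate finding. Between the members, rho was -0.40 for Dusp1 with Dusp14 and 0.38 for Dusp7 with Dusp14. These are descriptions over libraries that share mice and differ in depth and in population.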

How the data were processed

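Each library was made from 10 granule cells by Smart-seq2 and sequenced as single reads with a kit that does not mark strand. The authors aligned reads to mm10 with TopHat2 2.0.13 and deposited raw read counts per gene from HTSeq 0.6.0, keeping uniquely aligned reads. Between 16.4% and 59.7% of the reads of a library fell in no gene and were left out of totals. The counts were tested with edgeR 4.0.16 (R 4.3.3): TMM scaling, a filter of 10 or more counts in 12 (FC), 4 (NS) or 3 (HC) libraries, the mouse as a block and the default quasi-likelihood test with Benjamini-Hochberg adjustment over all genes tested. A call needed an adjusted p under 0.05 and an absolute log2 fold change above 1. Standard errors are the log2 fold change divided by the square root of F. Differences between groups came from 1 fit of 38 libraries with at least 10 counts in 3 libraries and needed an adjusted p under 0.05 alone. DESeq2 1.42.0, other filters and scalings, and omission of single mice were alternatives, and the newer quasi-likelihood method and the omission of the mice with over 1000 Arc counts in dVenus- cells were added after the data were seen.

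The members, the gene lists and the rule for naming genes (all members, called genes of the lists, and the 3 genes nearest to a called member) were chosen with earlier results of these data known. Both libraries of a pair came from the same animal, which is the source of the pairing, and the deviations of paired libraries from their group means had median correlations of 0.0359 (FC), -0.0122 (NS) and 0.0206 (HC). Simulated counts were negative binomial draws around each gene's mean, with a spread set by its level and no differences between mice. Recovery need not be the same for genes with many zeros, such as Dusp1. Tested on simulated counts for FC, the default method recovered 63.39% of genes changed 16-fold and 12.5% of those changed 4-fold. In the simulations for NS and HC it recovered 1 of 106 and 0 of 85 genes changed 16-fold, so the absence of a call there says little. For a few control libraries the description gives another group than the title and characteristics, and the latter were used. Libraries are separate pools of cells from separate mice within a population. Intervals at 0 reads use 3 counts and cover counting error only. Exon lengths are from GENCODE M21 and promoter sequences from RefSeq, both on GRCm38.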

Additional observations from a re-analysis of the deposited data

Results flagged for a closer look

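In the NS group single libraries stood far from the other 3 of their population for 3 members, in 4 of the 16 combinations of member and population examined. The nominal rate of such marks is about 1 in 20, but it was not measured on these counts, which hold many zeros, so the number of marks is a description only. Dusp1 was at 71.5 CPM in the dVenus+ library of mouse 18, with the next highest library at 0.216 CPM, and at 39.7 CPM in the dVenus- library of mouse 20, with the next at 2.04 CPM. Dusp4 was at 117 CPM in the dVenus+ library of mouse 21, with the next at 0.293 CPM. Dusp7 was at 204 CPM in the dVenus- library of mouse 18, with the next at 29.7 CPM.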

How the results depend on the processing

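Of 447 estimates for members under the alternatives, 391 kept direction and side of the threshold, 13 lost a call, 12 gained one and 31 changed direction, none of the last being a called value. In FC, 1 member was called, against 3 with DESeq2 (2 lower), 2 with the newer quasi-likelihood method (1 lower), and 0, also for higher, in 1 fit of 38 libraries, in either larger submission or with at least 3000000 counts per library. The last of these settings leaves out mouse 3 alone, so it is the same fit as the omission of that mouse. In the submission of 4 mice Dusp1 was below the count filter and was not tested. Omitting 1 mouse gave 0 to 1 call. Without the replicate block the count was 0, with Dusp1 at 3.17 and Dusp14 at -1.95. In NS, 0 members were called, against 1 (Dusp14, lower) with no filter, a looser filter, the genes of the authors' table or DESeq2, and 0 to 1 omitting 1 mouse. DESeq2 called 2, 1 and 1 members between groups. The causes were not tested. Genes called in FC numbered 137, against 1651 with DESeq2, 422 with the newer method, 73 in 1 fit of 38 libraries and 0 and 3 in the submissions of 6 and 4 mice. In NS, 0 became 671 with DESeq2 and 13 without a filter, and in HC 2 became 625 with DESeq2.

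Values that changed direction, none of them called, were these log2 fold changes. In the submission of 4 FC mice Dusp4 was -0.64 and Dusp3 0.38. Omitting 1 mouse, Dusp3 ranged from -0.36 to 0.045 in FC, Dusp6 from -0.87 to 4.78 and Dusp8 from -1.91 to 0.46 in NS, and in HC Dusp1 from -1.54 to 0.28, Dusp3 from -0.95 to 0.34, Dusp7 from -2.52 to 1.13, Dusp14 from -4.62 to 2.69 and Spry2 from -1.06 to 1.93. For NS against HC, omitting 1 mouse gave -0.39 to 1.50 for Dusp8, -0.10 to 0.59 for Dusp3, -0.86 to 0.49 for Spry2 and -0.65 to 0.64 for Arc in dVenus+ cells, and -0.35 to 1.60 for Dusp3 in dVenus- cells. Dusp8 there was -0.011 with DESeq2 size factors and -0.0074 with DESeq2. Between FC and NS, Spry2 was 0.074 with DESeq2 size factors and 0.072 with DESeq2, and Dusp6 was -1.26 with DESeq2. Between FC and HC, Dusp3 was 0.27 with DESeq2 size factors and with DESeq2 and 0.12 with a stricter filter. Without the replicate block, the FC to NS difference was 0.32 for Dusp8 and 0.35 for Spry2, the FC to HC difference 0.46 for Dusp3, 1.05 for Dusp14 and -2.83 for Arc, and the NS to HC difference 0.17 for Dusp1 and 0.065 for Dusp3. With 4 NS and 3 HC mice, pools of 10 cells and many zero counts, absence of a call does not show equal levels.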
